A study of Homo sapiens with 12 samples.

Results

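Broad H3K4me3 domains were the widest stretches of histone H3 trimethylated at lysine 4 in HepG2, a widely used cell line derived from a human liver cancer (hepatocellular carcinoma). They were selected on width alone, as the H3K4me3 peaks of at least 4000 bp on the autosomes and chromosome X, and 1645 of 24446 H3K4me3 peaks met that rule, which is 6.73% of the list by construction. They were set beside the 10744 H3K4me3 peaks of 1500 to 3999 bp, called narrower peaks here. The study, whose stated purpose was to use histone marks to prioritise variants, profiled untreated HepG2 cells by ChIP-seq, in which an antibody recovers the DNA attached to a chosen histone modification. Its 12 libraries fell into 4 groups of 3, for H3K4me3, for H3K27ac, for H3K4me1 and for a control that was titled input but carried an anti-mouse IgG antibody label. All groups came from the same unedited cell line, grown in minimal essential medium with serum, so a single cancer line stands for liver cells here. Each mark was available as 1 peak list pooled over its replicates. No test against the spread between replicates was therefore possible, and the lists hold no read counts, so the depth is unknown.

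H3K4me3 is laid down by the SET1 and MLL family of methyltransferases and marks the start sites of active and poised genes. Most such peaks are narrow, and wide domains of the mark have been described at genes that are highly or steadily transcribed in a cell type, among them genes for cell identity. H3K27ac, made by the acetyltransferases p300 and CBP, marks active promoters and enhancers, and H3K4me1 marks enhancers and the flanks of promoters. Positions are given on hg19, the build named in the submitters' processing notes. Domains are identified by position only: no hg19 annotation was used, and neither their genes nor liver marker genes were examined.

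The domains had a median width of 4716 bp (interquartile range 4299 to 5368 bp) and reached 13144 bp. Together they covered 8.37 Mb, or 18.5% of the 45.2 Mb in all H3K4me3 peaks. Most lay close to the width minimum. From 4000 to 4500 bp there were 623 domains (37.9%), from 4500 to 5000 bp 416, from 5000 to 6000 bp 360 and from 6000 to 8000 bp 190, and 56 were wider than that. Widths ran on without a break at the limit: the 5 domains just inside were all 4000 bp wide, with signal values from 31.9 to 48.3, and the 5 peaks just outside were 3994 to 3999 bp wide, with signal values from 29.6 to 62.9. The signal value is the authors' own height for each peak, on a scale whose reference is not given in the sources used here, and it is compared only within the list of 1 mark.

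**Figure D1:**
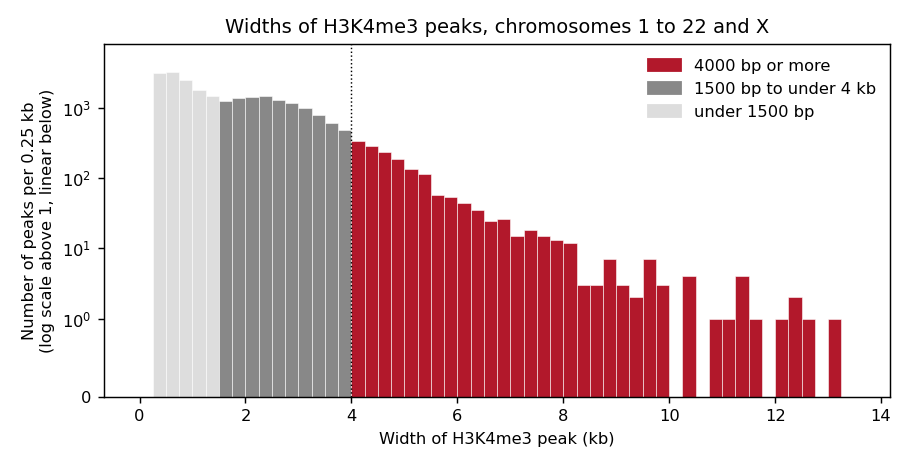
Number of H3K4me3 peaks by width in kb, in steps of 0.25 kb, with a count axis that is logarithmic above 1. The 1645 domains (4000 bp or more) form the right-hand tail of 1 continuous distribution that ends at 13144 bp.

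Width and height came from the same peaks, so the height of the domains is a description of how they were chosen. Their median signal value was 51.3 (interquartile range 41.2 to 60.1) against 39.7 in the narrower peaks and 13.3 in all H3K4me3 peaks. The strongest 10% of all peaks by signal value included 647 of the domains (39.3%), and 16 domains lay below the median of all peaks. Within the domains, which were cut on width, width and signal value were only loosely related (Spearman's rho 0.13 across 1645 domains, from 1 pooled list). In the narrower peaks the relation was closer (rho 0.47 across 10744 peaks). The highest signal value of a domain, 103.5, belonged to chr19:47729427-47735354, which at 5928 bp was far from the widest.

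The widest domain, chr7:130591562-130604705, spanned 13144 bp with a signal value of 30.1, below the domains' median. It lay wholly inside a single H3K27ac region of 35031 bp, and 5 H3K4me1 regions covered 56.7% of it. The next, chr7:5457903-5470525, spanned 12623 bp and also lay inside 1 H3K27ac region, but H3K4me1 covered 16.2% of it and left a stretch of 10583 bp around its summit free of that mark. These 2 domains differed in how far H3K4me1 reached into them.

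The domain chr1:8075550-8087908 (12359 bp), had its summit close to an end, at 8.61% of its width from the nearer edge. The domain chr11:65183518-65195769 (12252 bp) was the only one of the 10 widest whose summit lay inside an H3K4me1 region. The domain chr12:125397191-125408896 (11706 bp) held 8 separate H3K4me1 regions, the highest number in any domain. In chr5:42806059-42817401 (11343 bp) acetylation was instead broken into 4 H3K27ac regions that together covered 89.9% of it. The other 4 were chr12:46756558-46768577, chrX:133111067-133122420, chr20:17942733-17954007 and chr12:69198362-69209635, from 11274 to 12020 bp wide. In all 10 the summit was acetylated, and the H3K27ac region over it had a signal value from 21.6 to 83.0.

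**Figure D2:**
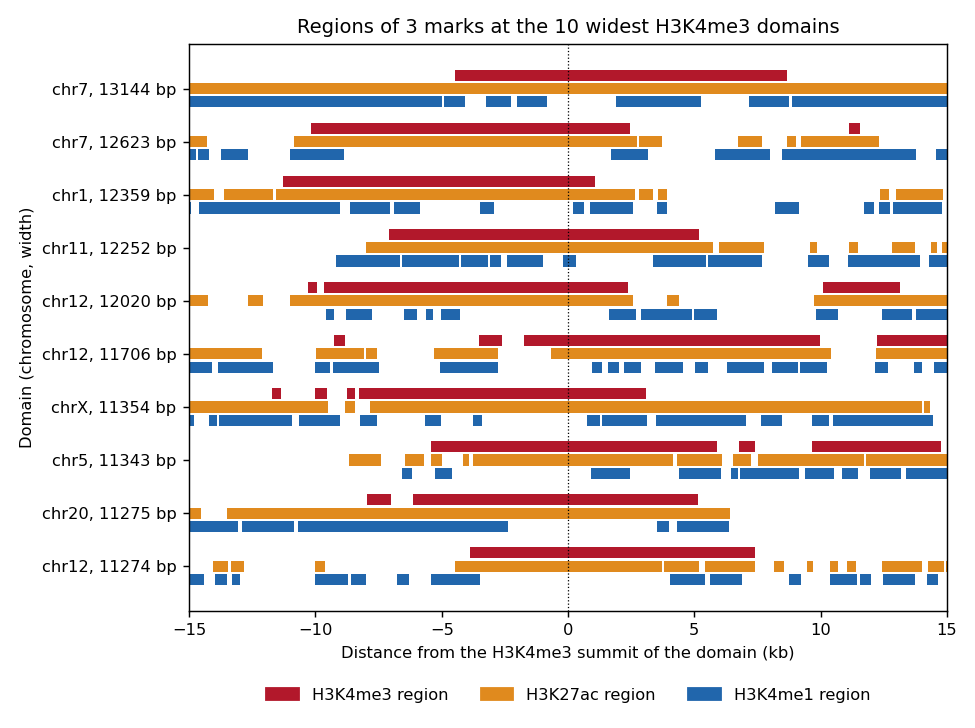
Regions of the 3 marks around the 10 widest domains, by distance in kb from the H3K4me3 summit, drawn to 15 kb on either side. H3K27ac covers 89.9% to 100% of each domain, whereas H3K4me1 lies in separate pieces, some of them well inside the domain, and covers the summit in 1 domain on chromosome 11.

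Nearly every domain was acetylated at its summit. The H3K4me3 summit lay inside an H3K27ac region in 1640 of 1645 domains (99.7%, 95% Wilson interval 99.3 to 99.9), beside 76.4% of all H3K4me3 peaks. In the narrower peaks the share was 96.3% (95.9 to 96.6), so the domains stood 3.44 percentage points higher (2.91 to 3.85), with the same direction on 23 of 23 chromosomes. All intervals reflect counting error alone, with each region taken as independent of its neighbours, and the chromosomes are not replicates. The difference shrank to 0.592 points among peaks with a signal value of at least 20, in which every domain summit was acetylated.

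The H3K27ac regions that held the domain summits also had higher signal values. Their median was 32.2 (interquartile range 22.3 to 45.0, n = 1640) against 20.0 in the narrower peaks, a ratio of 1.61. It was higher in the domains on 23 of 23 chromosomes. Each value is that of the whole H3K27ac region, not of the position of the H3K4me3 summit. The acetylated region itself was wide: its median width was 4717 bp in the domains and 2263 bp in the narrower peaks. A median of 95.5% of a domain's bases (interquartile range 87.9 to 99.98) lay in H3K27ac regions, against 87.6% in the narrower peaks. Such shares depend on width, because an uncovered margin of a given length takes up more of a narrower peak. Within the central 1500 bp the median was 100% in both, but single positions there still differed: 500 bp from the summit on the shorter arm, 95.3% of domains and 77.1% of narrower peaks lay in an H3K27ac region. That position is nearer the edge in the narrower peaks, whose shorter arm had a median of 985 bp against 1784 bp. The comparison therefore depends on width.

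All bases were acetylated in 410 domains (24.9%, 22.9 to 27.1), the same share as among all H3K4me3 peaks (24.9%) and above the 17.3% of the narrower peaks. At least 90% of the bases were acetylated in 1159 domains (70.5%) and in 44.4% of the narrower peaks, a comparison that likewise depends on width. More than 1 H3K27ac region lay in 30.8% of the domains and 17.9% of the narrower peaks. Per kb of peak the order turned, with 0.274 H3K27ac regions in the domains and 0.455 in the narrower peaks. The H3K27ac summit lay farther from the H3K4me3 summit in the domains, at a median of 366.5 bp against 110 bp, and within 500 bp in 56.2% against 79.7%. This distance also depends on width, since wider regions leave more room between summits.

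H3K4me1 showed the opposite arrangement, low at the summit and high at the ends. The summit lay inside an H3K4me1 region in 94 domains (5.71%, 4.69 to 6.94), beside 40.6% of all H3K4me3 peaks and 15.5% of the narrower peaks. The difference of the domains from the narrower peaks was -9.75 points (-10.98 to -8.35), and the domains were lower on 23 of 23 chromosomes. Among peaks with a signal value of at least 20 the difference was -1.96 points. A median of 32.7% of a domain's bases (interquartile range 19.7 to 49.3) lay in H3K4me1 regions, against 40.4% in the narrower peaks, and this was lower in the domains on 21 of 23 chromosomes. These shares also depend on width, since a covered margin of a given length takes up more of a narrower peak.

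The stretch around the summit that was free of H3K4me1 was longer in wider domains, with a median of 2773 bp at 4000 to 4500 bp and 4994 bp above 8000 bp. Over the 1551 domains with a summit outside H3K4me1 its median length was 3083 bp, against 1739 bp in the narrower peaks. Relative to the peak's width the medians were 64.0% (62.4 to 66.1) and 64.5% (63.8 to 65.1), whose intervals overlap. The stretch was not cut at the peak's edges and could run past them, so this ratio is not a share of the peak. H3K4me1 began inside the peak on both sides of the summit in 80.2% of these domains and 69.3% of the narrower peaks. At least 3 H3K4me1 regions lay in 34.2% of the domains and 8.29% of the narrower peaks, although per kb there were fewer in the domains, 0.454 against 0.686.

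Beyond the edges, H3K4me1 went on more often than acetylation did. At 500 bp outside both edges an H3K4me1 region was present in 749 domains (45.5%, 43.1 to 47.9), beside 38.7% of all H3K4me3 peaks and 35.2% of the narrower peaks. The difference from the narrower peaks was 10.3 points (7.77 to 12.9), with the same direction on 22 of 23 chromosomes. It lay outside 1 edge in 41.7% of the domains and 45.1% of the narrower peaks, and outside neither in 210 domains (12.8%) and 19.7%. Counted by edge, H3K4me1 was present at 66.4% of domain edges at 500 bp, 52.8% at 1000 bp and 29.8% at 5000 bp, against 57.8%, 39.7% and 22.2% in the narrower peaks.

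H3K27ac at 500 bp outside both edges was found in 219 domains (13.3%, 11.8 to 15.0), near the 12.4% of all H3K4me3 peaks and above the 6.59% of the narrower peaks. It was outside neither edge in 48.4% of the domains and 71.5% of the narrower peaks. Of the domain edges with H3K27ac 500 bp outside, 89.9% also had H3K4me1 there, whereas 43.9% of those with H3K4me1 also had H3K27ac. These shares are unequal because H3K27ac lay outside 1067 domain edges and H3K4me1 outside 2184. In the narrower peaks the same shares were 87.9% and 26.7%, so the first was much alike in both sets.

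Many domains were lopsided about their summit. The longer arm, from summit to edge, had a median of 3035 bp and the shorter 1784 bp. The summit lay nearer than 25% of the width to an edge in 281 domains (17.1%, 15.3 to 19.0) and in 6.64% of the narrower peaks. That share went from 11.7% in domains of 4000 to 4500 bp to 39.3% in those over 8000 bp. The longer arm pointed to the higher coordinate in 50.1% of the domains.

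Both other marks were present more often 500 bp beyond the longer arm than beyond the shorter. H3K27ac lay 500 bp beyond it in 37.4% of the domains and beyond the shorter arm in 27.4%, a difference of 10.0 points (6.84 to 13.2), while in the narrower peaks the same difference was 1.68 points (0.668 to 2.70). For H3K4me1 the shares were 70.3% and 62.5%, a difference of 7.78 points (4.56 to 10.98). In the narrower peaks it was 5.81 points (4.49 to 7.12), so these intervals overlap. The intervals of these differences take the arms as independent, although both arms belong to the same peak, so they ignore that pairing. With all domains aligned at the summit and the longer arm to the right, H3K4me1 was lowest near the summit and peaked at 65.4% of domains 1700 bp away on the shorter arm and 66.9% at 2800 bp on the longer arm.

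**Figure D3:**
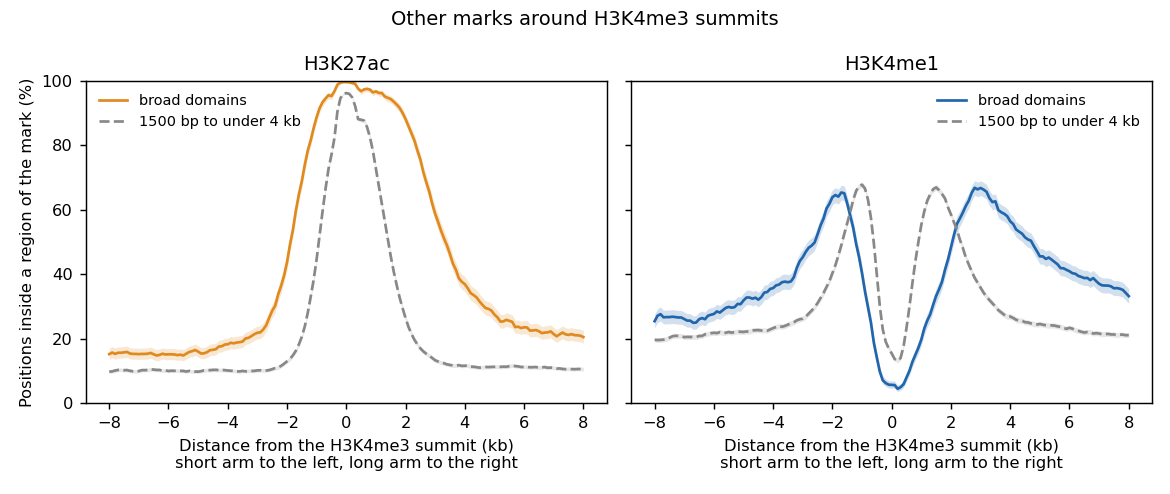
Share of peaks (%) inside an H3K27ac region (left) and an H3K4me1 region (right) by distance in kb from the H3K4me3 summit, longer arm to the right, for domains and narrower peaks, with shaded 95% Wilson intervals. H3K4me1 in the domains is 5.71% at the summit and reaches 66.9% on the longer arm, farther out than in the narrower peaks.

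Because the domains had higher H3K4me3 signal values, they were also set beside narrower peaks of like signal value, in 7 classes chosen after the data were seen. The median signal value of the H3K27ac region at the summit was higher in the domains in all 7. Each value is again that of the whole H3K27ac region, and width was not matched. Over all classes that region had a median width of 4717 bp in the domains and 2263 bp in the narrower peaks. Between 40 and 50 it was 30.6 (28.4 to 32.1) in 395 domains and 21.5 (20.9 to 22.02) in 2493 narrower peaks. Below 20 the intervals overlapped, with 12.7 (9.31 to 17.7) in 53 domains and 11.5 (10.6 to 12.2) in the narrower peaks.

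The share of summits inside H3K4me1 differed mainly between classes of signal value. It went from 47.2% of domains below 20 to 23.3% from 20 to 30, 8.70% from 30 to 40 and 1.69% from 70 up, and its intervals overlapped those of the narrower peaks in each class, where the shares were 56.6%, 18.3%, 7.09% and 2.33%. From 20 to 40 the values of the domains were the higher ones. H3K4me1 outside both edges kept a difference: from 50 to 60 it was found in 46.8% of domains (42.3 to 51.3) and 33.5% of narrower peaks (31.3 to 35.7). Below 20 the order was the other way, 35.8% against 47.5%, with overlapping intervals.

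**Figure D4:**
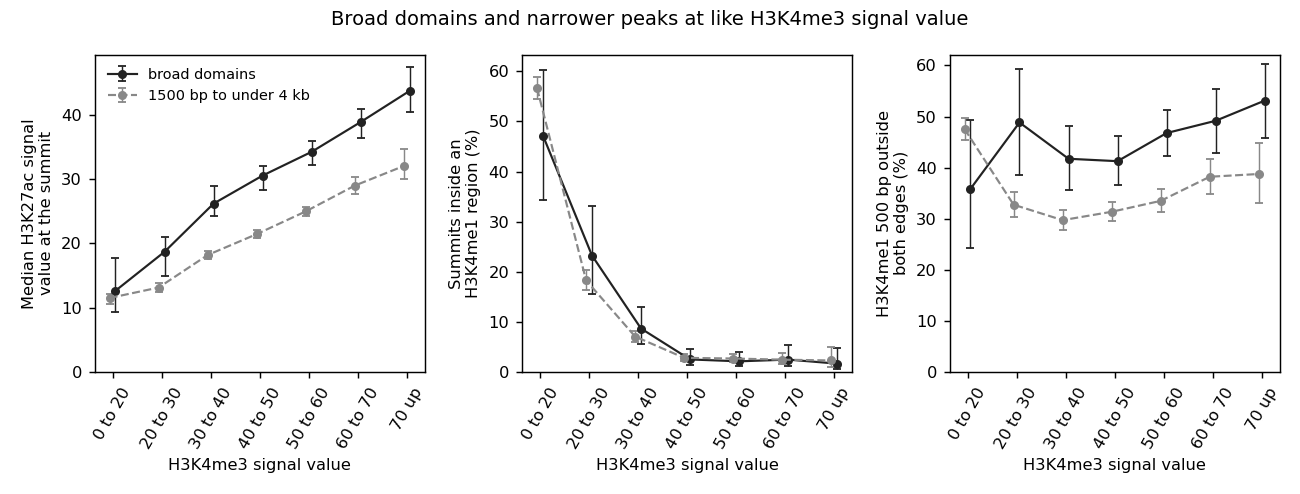
Domains and narrower peaks by class of H3K4me3 signal value, with 95% intervals. The panels show the median signal value of the H3K27ac region at the summit and the share of summits (%) inside H3K4me1. The last shows the share (%) with H3K4me1 500 bp outside both edges. The curves for H3K27ac lie apart from 20 up, and those for H3K4me1 at the summit run together.

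The 94 domains with H3K4me1 at the summit had a median H3K4me3 signal value of 31.7, against 52.0 in the other 1551, and 25 of them were below 20. They were still acetylated at the summit in 91 cases. Not all were weak. The widest of them after the chromosome 11 domain above, chr11:65263720-65273526 (9807 bp) and chr19:1283203-1291834 (8632 bp), had signal values of 56.3 and 53.6. At the other end, 29 domains (1.76%) held no H3K4me1 at all, beside 7.25% of all H3K4me3 peaks and 3.75% of the narrower peaks. The widest of these, picked after their values were seen, was chr18:60380837-60388759, with 7923 bp, a signal value of 44.3 and H3K27ac on 94.8% of its bases.

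The 5 domains with no H3K27ac at the summit were chr17:8023623-8030898, chr5:141253917-141258890, chr11:46410732-46414919, chr1:245316426-245320593 and chr16:85202986-85207014. Their signal values were low, from 10.2 to 18.1. H3K4me1 covered between 65.1% and 89.0% of each, and it lay over the summit in 3 of them. Acetylation covered at most 23.1% of any, and the chromosome 1 domain held none, the only such case among all domains.

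A total of 53 domains had a signal value below 20. Their lowest values were 6.25 at chr4:74301775-74307068, 8.37 at chr12:24186980-24192096, 8.76 at chr14:104354663-104358854, 9.65 at chr5:42821134-42826238 and 9.70 at chr2:135169073-135173601. In the last 4 the summit lay inside both an H3K27ac and an H3K4me1 region. The chromosome 4 domain, 5294 bp wide, had no H3K4me1, and H3K27ac covered 19.5% of it. The weak chromosome 5 domain lay just downstream in coordinates of the domain of 11343 bp named above, whose signal value was 67.7.

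Weak domains poor in H3K4me1, a group defined after the data were seen as a signal value below 20 with the mark on less than 25% of bases, numbered 10, and 3 of them sat near one another on chromosome 4. The first, chr4:74269786-74279473, was 9688 bp wide with a signal value of 12.1. The second, chr4:74279841-74285998, was 6158 bp wide with a signal value of 10.5 and lay 367 bp from the first. The third was the weakest domain of all, described above. H3K27ac covered 95.4%, 78.3% and 19.5% of the 3, so these neighbours with low H3K4me3 differed in acetylation.

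**Figure D5:**
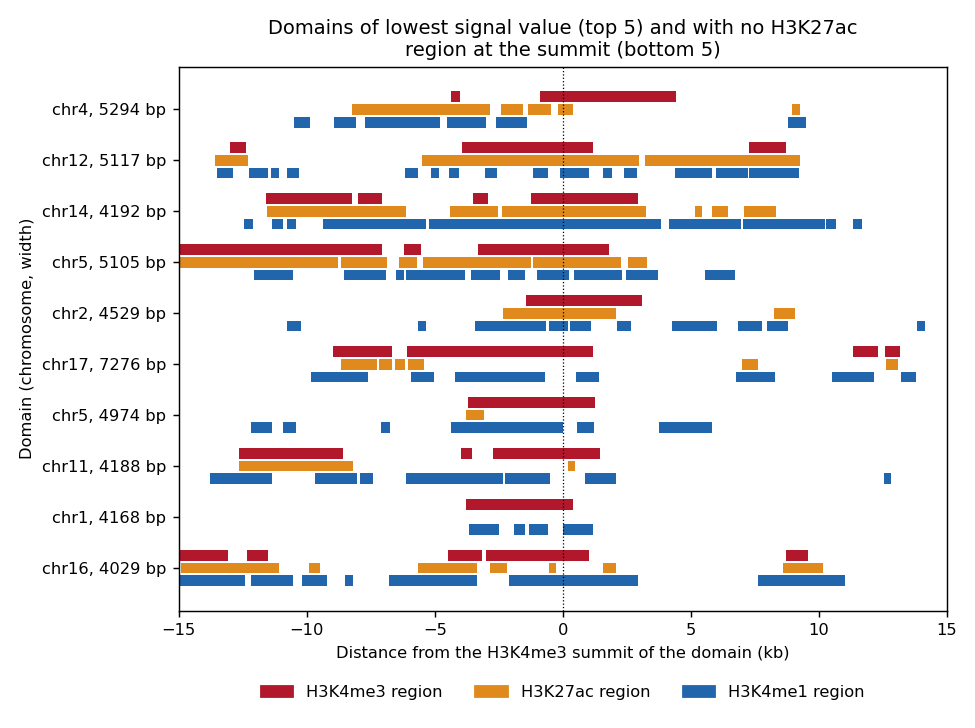
Regions of the 3 marks around the 5 domains of lowest H3K4me3 signal value (top) and the 5 with no H3K27ac region at the summit (bottom), by distance in kb from the H3K4me3 summit. The bottom 5 carry H3K4me1 over 65.1% to 89.0% of their length, while the weakest domain, on chromosome 4, carries none.

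Domains were found on every chromosome examined. Their share of the H3K4me3 peaks was highest on chromosome 4, at 9.09% (7.36 to 11.2), and lowest on chromosome 19, at 4.08% (3.23 to 5.15). H3K4me1 outside both edges ranged from 25.5% of the 51 domains on chromosome X to 73.0% of the 37 on chromosome 20. These numbers of domains are small, so part of that range may be counting error. In the narrower peaks the lowest share was also on X, at 19.0%, while the highest was on chromosome 22, at 52.1%. The difference between domains and narrower peaks was uneven: the shares were 46.2% and 26.4% on chromosome 6, and 29.1% and 29.7% on chromosome 4.

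Domains had a close neighbour about as often as narrower peaks did. Another H3K4me3 peak of any width lay within 1000 bp of 155 domains (9.42%, 8.10 to 10.9), beside 12.4% of all H3K4me3 peaks and 9.16% of the narrower peaks, a difference of 0.264 points (-1.17 to 1.86). The median gap to the nearest H3K4me3 peak was 18095 bp (interquartile range 4999 to 46977 bp). Pairs of domains within 1000 bp of each other numbered 4, and those within 50000 bp 106. The closest pair was chr2:43445114-43449287 and chr2:43449550-43455514, 262 bp apart, with signal values of 19.6 and 47.9. The densest windows of 1 Mb held 6 domains each and lay at 1 to 2 Mb of chromosomes 1 and 19, 50 to 51 Mb of chromosome 14, and 7 to 8 and 79 to 80 Mb of chromosome 17. That on chromosome 14 held 6 domains among 24 H3K4me3 peaks, and that on chromosome 19 held 6 among 69.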

How the data were processed

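The deposited values were 3 peak lists of HepG2 ChIP-seq, 1 for each mark, pooled over 3 replicates by the authors going by their names. The submitters' processing notes name MACS2 and hg19, without versions or settings, and the use made of the control is not given in the sources used here. Each deposited peak has a signal value from the authors, a −log10 p-value, a −log10 q-value and a score; the authors' score and −log10 p-value were not used, and what the signal is relative to is not given. The lowest −log10 q-value of a domain in the authors' list was 99.1.

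Domains were peaks of at least 4000 bp. A summit or a position 500 bp outside an edge counted as marked where it lay inside a region of the other mark. Shares have 95% Wilson intervals and medians have order-statistic intervals. Differences have intervals combined from those of both groups, or of both arms, taken as independent. For the arms this ignores that both belong to the same peaks. Python 3.11.15, pandas 2.3.3 and scipy 1.17.1 were used, and the code was tested on simulated peaks. Named regions were the 10 widest, the 5 with the highest and the 5 with the lowest signal value, the 5 on either side of the width limit, domains with an unusual summit (all if at most 10, otherwise the 5 widest) and dense windows; others are named as picked later. The members and lists were chosen with earlier results of these data known. Gene and base-composition comparisons were not run, since an hg19 genome and annotation were not used here.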

Additional observations from a re-analysis of the deposited data

Results flagged for a closer look

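Chromosome Y lay outside the set described above, and 4 of its 35 H3K4me3 peaks were at least 4000 bp wide, the widest 5024 bp. They appear here because a count of 4 is above the limit of 3 that a count of 0 allows. No control values were available to set beside them.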

How the results depend on the processing

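Of 141 values under other settings, over 15 results, 95 stayed close to the original and 46 did not. Direction could change only in the differences from narrower peaks, and it changed in 0. Close means within the interval of the original value or, for the number of domains, which has no interval, within 1.5 times. Requiring a −log10 q-value of at least 5 in the H3K4me3 peaks left every value unchanged, and those values count as close. No paired analysis was possible because each mark had 1 pooled list, and for the same reason no replicate could be left out. A change of the width minimum also changed the narrower peaks, which then ran from 1500 bp to just under the new minimum. The differences under those settings therefore reflect a change in both sets. With a width minimum of 3000 bp there were 4515 domains, with median H3K27ac signal 28.9, H3K27ac on 93.7% and H3K4me1 on 34.4% of bases. H3K4me1 lay beyond both edges in 42.3%, and differences from narrower peaks at the summit were 4.44 points for H3K27ac and -11.6 for H3K4me1. With 5000 bp there were 606, with H3K27ac signal 34.5, H3K27ac on 96.9% of bases, H3K4me1 beyond both edges in 49.7%, and differences of -6.07 points for H3K4me1 bases, -7.78 for H3K4me1 at the summit and 13.8 for both edges. Joining H3K4me3 peaks within 1000 bp gave 1983 domains, H3K27ac signal 30.9, H3K27ac on 94.3% and H3K4me1 on 37.2% of bases, H3K4me1 at 7.41% of summits, and differences of -3.50 points for H3K4me1 bases and 3.86 for H3K27ac at the summit. Joining H3K4me1 peaks gave H3K4me1 at 9.12% of summits (a difference of -20.0 points), on 35.8% of bases, beyond both edges in 55.6% and beyond none in 7.23%. Requiring a −log10 q-value of at least 5 in the other marks gave 4.44%, 30.6%, 41.9% and 16.2% for those shares. At 200 bp outside the edges H3K4me1 lay beyond both in 58.1% and none in 8.45% (differences of 4.39 and -1.63 points), and at 1000 bp in 28.8% and 23.2% (the latter a difference of -16.1). With a signal value of at least 20, H3K27ac lay at 100% and H3K4me1 at 4.33% of summits, with differences of 0.592 and -1.96 points, -4.43 for H3K4me1 bases and 13.4 for both edges. In the central 1500 bp the median coverage was 100% for H3K27ac (a difference of 0) and 0% for H3K4me1 (-19.1). That window comes nearer the edges of the narrower peaks, whose shorter arm had a median of 985 bp against 1784 bp. Its differences therefore depend on width. The cause of these shifts was not tested. Unknown depth limits every absence of a region to a statement about the list.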
